A study of Mus musculus with 6 samples.

Results

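The transcripts described here are those of 10 core genes of transforming growth factor beta (TGF-beta) signalling: the ligand gene Tgfb1, the receptor genes Tgfbr1 and Tgfbr2, the Smad genes Smad2, Smad3, Smad4 and Smad7, and the genes of the repressors Ski, Skil and Tgif1. They were chosen by name for their role in the pathway, with earlier results of these data known. All 10 were among the 16111 annotated genes of the deposited table. That table holds genes with a total of at least 10 counts, and annotated here means present in it under that symbol. A filter on low counts left 9 of the 10, all but Smad7, among the 11408 genes that were tested.

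TGF-beta is secreted in a latent form and, once released, binds the type II receptor TGFBR2, which recruits and phosphorylates the type I receptor TGFBR1. The activated type I receptor phosphorylates SMAD2 and SMAD3, which join SMAD4 and enter the nucleus to regulate transcription. SMAD7, whose gene is itself a target of the pathway, blocks the receptor, while SKI, SKIL (also called SnoN) and TGIF1 bind Smads in the nucleus and repress their target genes. In macrophages TGF-beta is known as a restrainer of inflammatory activation and as a signal that maintains tissue-resident identities such as those of microglia and alveolar macrophages. Most of the pathway's switching is by cleavage, phosphorylation and degradation of proteins, which transcript levels do not measure.

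RNA was sequenced from cultured macrophages of C57BL/6 RCC mice, 3 wild-type (WT) and 3 deficient in Ahrr (AhRR-/-), with mice numbered 1 to 3 in each genotype. Cells of both genotypes came from the fetal liver at embryonic day E13.5 and were cultured for 5 weeks in RPMI with 10% FCS and 2% GM-CSF, a growth factor for macrophages, after which the non-adherent cells were taken. The only labelled difference is the genotype, the allele is not described in the sources used here, and the labels name no treatment with TGF-beta or with a ligand of the aryl hydrocarbon receptor (AhR). Ahrr encodes the AhR repressor, a protein that competes with AhR for its partner ARNT and for DNA, and the comparison asks which transcripts differ without it. The cells are therefore a culture model driven by GM-CSF, not liver macrophages as taken from the animal.

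Libraries held between 3556106 and 41668336 counts, the lowest in AhRR-/- replicate 1 and the highest in AhRR-/- replicate 2, and levels are given as counts per 1000000 counts of the library (CPM). The first principal component (55.5% of variance) separated the genotypes, and the second (20.4%) set AhRR-/- replicate 1 apart from the other libraries. WT replicate 2 carried 5.28% of its counts on the ribosomal RNA gene CT010467.1, against at most 0.0679% elsewhere. Ahrr itself (chromosome 13, 74211118 to 74292331) fell from a mean of 4.74 ± 0.53 CPM in WT to 2.01 ± 0.71 CPM in AhRR-/- libraries (SD, n = 3 each; adjusted p = 0.0151, edgeR), and its reads remained in all 3 AhRR-/- libraries. Without WT replicate 1 or 3 the adjusted p (edgeR) for Ahrr was 0.0631 or 0.0502. Macrophage markers summed to between 57114 and 63943 CPM in WT and between 50228 and 59165 CPM in AhRR-/- libraries. Of 6 markers of resident fetal liver macrophages, 4 were annotated, led by Timd4, and they summed to between 17.1 and 37.4 CPM in WT and between 29.4 and 33.8 CPM in AhRR-/- libraries, while Clec4f and Vsig4 were not among the annotated genes. Of the annotated 4, Cd5l fell from a mean of 4.08 to 0.553 CPM (adjusted p = 0.00361, edgeR).

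Of the 9 tested genes, Skil rose and Tgif1 fell in AhRR-/- cells, with adjusted p-values under 0.05 in edgeR's quasi-likelihood test. That is 22.2% of 9 genes, where 19.6% of all tested genes were called, so the share is near the background and is no result about the pathway as a whole. At an unadjusted p under 0.05 there were 4 of the 9 (Tgif1, Skil, Smad3 and Smad2), against 35.8% of all tested genes. In 5 of the 9 genes the CPM ranges of the genotypes did not overlap, against 36.6% of all tested genes. Fold changes were small: the median log2 fold change of the 9 genes was 0.05 against 0.01 for all tested genes, and the median of its absolute size was 0.18 against 0.22. Levels of the ligand, both receptors and Smad4 gave no call in the main fit or in any of 16 other ways of processing the data. The calls varied with single libraries, as did those over all genes. Without WT replicate 1 or 2, 0 of 9 or 0 of 10 tested core genes were called, and 694 of 11427 or 965 of 11839 genes over all. Without AhRR-/- replicate 1, the library that stood apart, 5 of 10 tested core genes were called. Over all genes that fit called 3857 of 11837, against 2232 of 11408 in the main fit.

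**Figure D1:**
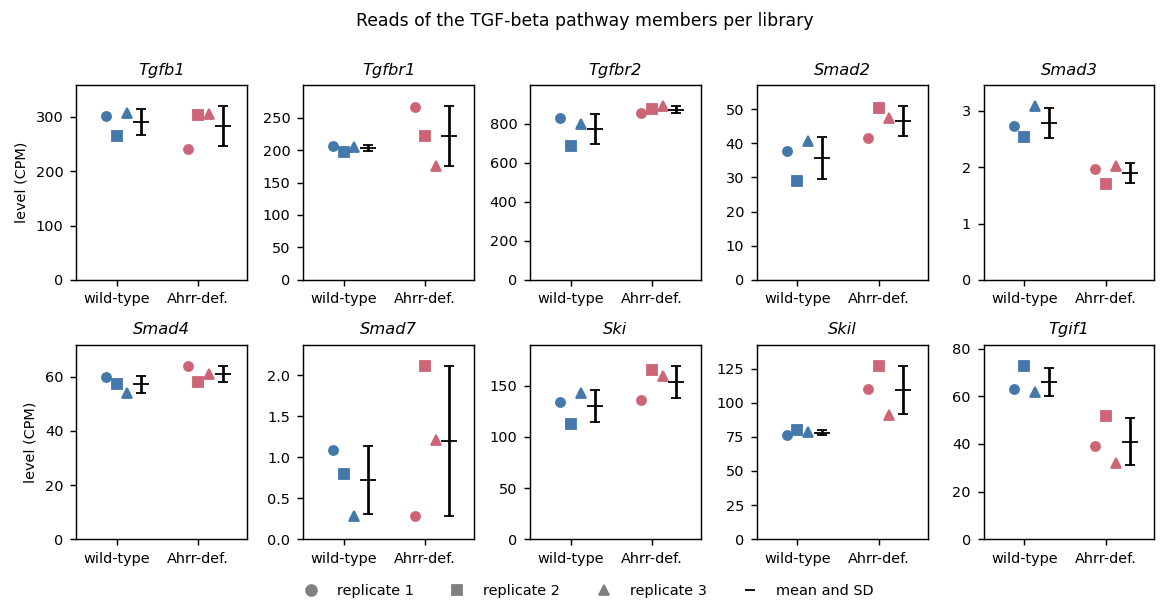
Level of each of the 10 genes in counts per 1000000 counts (CPM, vertical axes, each panel on its own scale from 0) in the 3 WT and 3 AhRR-/- libraries, with a point for each library and bars for the mean and SD. Groups are apart for Tgfbr2, Smad2 and Skil, higher in AhRR-/- cells, and for Smad3 and Tgif1, lower in AhRR-/- cells.

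Promoter sequences from the RefSeq table (GRCm38.p6) were used for 6 of the 10 genes: Ski, Smad3, Tgfb1, Tgfbr1, Tgfbr2 and Tgif1. Promoters of Smad2, Smad4, Smad7 and Skil were not searched, so the counts below do not cover them. Each window runs from 250 bases before to 50 bases after an annotated start, and the 6 genes have 11 windows. They were searched on both strands for the Smad box, GTCT or AGAC, which is the short sequence bound by SMAD3 and SMAD4, and for the core of the AhR response element, GCGTG or CACGC, which AHR, AHRR and ARNT share. A Smad box and an AhR core can overlap by at most 1 base. A Smad box was found in 8 of the 11 windows and in 88.0% of all 32851 mouse windows, and an AhR core in 7 of the 11 and in 32.4% of all. At least 1 window of each of the 6 genes held an AhR core, and Ski was the gene without a Smad box in its window. The shares over all are per window, whereas Tgfbr1 has 2 windows and Tgif1 has 5, and no share per gene was computed. Windows of these genes with an AhR core were 52% to 85.3% GC, and those without were 37.3% to 68.7%. Matches were not compared with windows of like GC content, so they show no excess of AhR cores in the pathway. Windows of 2 genes are shown, because Tgif1 was the called gene with the larger change and has 5 annotated starts that differ in both motifs, and because Smad3 is the Smad whose groups did not overlap on the lower side. Sequences run 5′ to 3′ on the strand of the gene, and capitals mark matches to either motif.
Tgif1, upstream start (chr17:70853483-70853782, minus strand): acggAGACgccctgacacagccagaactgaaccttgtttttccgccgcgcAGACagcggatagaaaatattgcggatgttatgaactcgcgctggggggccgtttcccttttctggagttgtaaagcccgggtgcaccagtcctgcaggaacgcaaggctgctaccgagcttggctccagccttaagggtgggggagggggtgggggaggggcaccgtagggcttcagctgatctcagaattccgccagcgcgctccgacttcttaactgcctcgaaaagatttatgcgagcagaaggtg
Tgif1, next start (chr17:70851685-70851984, minus strand): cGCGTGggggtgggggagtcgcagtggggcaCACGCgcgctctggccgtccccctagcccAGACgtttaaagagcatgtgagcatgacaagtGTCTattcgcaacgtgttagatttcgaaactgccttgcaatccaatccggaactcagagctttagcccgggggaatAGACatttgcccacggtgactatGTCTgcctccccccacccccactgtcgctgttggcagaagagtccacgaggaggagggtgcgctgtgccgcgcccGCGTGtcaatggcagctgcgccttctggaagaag
Smad3 (chr9:63757945-63758244, minus strand): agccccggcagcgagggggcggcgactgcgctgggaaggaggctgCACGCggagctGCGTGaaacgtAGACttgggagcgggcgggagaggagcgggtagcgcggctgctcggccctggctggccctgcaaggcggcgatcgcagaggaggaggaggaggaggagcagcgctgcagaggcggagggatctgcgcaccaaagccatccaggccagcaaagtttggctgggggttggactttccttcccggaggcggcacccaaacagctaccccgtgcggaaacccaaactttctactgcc
The most upstream Tgif1 window holds 2 Smad boxes and 0 AhR cores, while the next start, which lies within the gene, holds 4 Smad boxes and 3 AhR cores. In the Smad3 window the 2 AhR cores both lie before its single Smad box. Over the 5 Tgif1 starts, 4 windows hold a Smad box and 2 an AhR core. Such matches describe letters, not binding, and counts per gene do not tell which start the Tgif1 reads came from.

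The ligand gene Tgfb1 (ENSMUSG00000002603.15, chromosome 7, 25687002 to 25705077) encodes TGF-beta 1, the form that macrophages make. It was at 301, 264 and 307 CPM in WT replicates 1, 2 and 3 and at 240, 303 and 305 CPM in the AhRR-/- replicates. AhRR-/- replicate 1 was the lowest library and WT replicate 2 the next, so the groups overlapped. Means were 291 ± 23.2 (SD, n = 3) and 283 ± 36.8 CPM (SD, n = 3), and the log2 fold change was -0.11 (95% interval -0.34 to 0.12, adjusted p = 0.474, edgeR). A p above the threshold does not show that the levels were equal, and the interval gives the changes these libraries allow. With offsets for GC content the value was 0.02.

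Of the receptor genes, Tgfbr2 (ENSMUSG00000032440.13, chromosome 9, 116084293 to 116175360), for the type II receptor that binds the ligand, was at 829, 683 and 799 CPM in WT replicates 1, 2 and 3. In the AhRR-/- replicates it was at 852, 873 and 887 CPM. All 3 AhRR-/- libraries lay above all WT libraries, although the gap between the nearest 2 was small beside the WT spread. Means were 770 ± 77.1 and 871 ± 17.5 CPM (SD, n = 3 each), and the log2 fold change of 0.11 (SE 0.10) did not pass the test (adjusted p = 0.479, edgeR). The lowest value belonged to WT replicate 2, the library with the large share of ribosomal RNA.

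Tgfbr1 (ENSMUSG00000007613.15, chromosome 4, 47353222 to 47414931) encodes the type I receptor, the kinase that phosphorylates SMAD2 and SMAD3. WT replicates 1, 2 and 3 were at 206, 198 and 205 CPM, close to each other, and AhRR-/- replicates at 267, 223 and 176 CPM. The AhRR-/- libraries thus lay on both sides of the WT ones, with an SD of 45.9 CPM against 4.42 CPM in WT. The log2 fold change was 0.05 (95% interval -0.27 to 0.37, adjusted p = 0.838, edgeR), and -0.12 without AhRR-/- replicate 1, the library with the highest value. Within a library and per kilobase of exon, Tgfbr2 exceeded Tgfbr1 3.21, 2.75 and 3.11 times in WT and 2.54, 3.13 and 4.03 times in AhRR-/- replicates 1, 2 and 3, and these ratios overlapped.

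SMAD2 and SMAD3 are the receptor-regulated Smads of this pathway, of which SMAD3 binds the Smad box directly and the common form of SMAD2 does not. Smad2 (ENSMUSG00000024563.15, chromosome 18, 76241580 to 76310963) was at 37.6, 28.9 and 40.6 CPM in WT and at 41.6, 50.3 and 47.3 CPM in AhRR-/- replicates 1, 2 and 3. Every AhRR-/- library lay above every WT library, though the nearest of them were close. The log2 fold change was 0.32 (95% interval 0.07 to 0.57), with an adjusted p (edgeR) of 0.0699, which did not pass the threshold. It passed without AhRR-/- replicate 1, at 0.36 (adjusted p = 0.0263, edgeR).

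Smad3 (ENSMUSG00000032402.12, chromosome 9, 63646767 to 63757994) was scarce, with 60, 16 and 22 counts in WT and 7, 71 and 20 counts in AhRR-/- replicates 1, 2 and 3. These are 2.73, 2.54 and 3.08 CPM against 1.97, 1.70 and 2.02 CPM, and the groups did not overlap. The log2 fold change was -0.67 (95% interval -1.16 to -0.19, adjusted p = 0.0566, edgeR), on the side of lower Smad3 but not past the threshold. Without AhRR-/- replicate 1, whose value rests on 7 counts, it was -0.71 (adjusted p = 0.0433, edgeR). Within each library Smad2 was the more abundant of the 2 per kilobase, 8.68, 7.18 and 8.32 times in WT and 13.3, 18.6 and 14.8 times in AhRR-/- replicates 1, 2 and 3. Those ratios were 8.06 ± 0.783 and 15.6 ± 2.74 (SD, n = 3 each) and did not overlap. The ratio was formed after the values were seen and carries no test.

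Smad4 (ENSMUSG00000024515.13, chromosome 18, 73639009 to 73703780) encodes the common partner of the receptor-regulated Smads, shared with the bone morphogenetic protein (BMP) branch. It was among the steadiest of the 10 genes, at 60.1, 57.5 and 54.1 CPM in WT and 64.1, 58.0 and 61.0 CPM in AhRR-/- replicates 1, 2 and 3. The groups overlapped, and the log2 fold change was 0.01 (95% interval -0.21 to 0.23, adjusted p = 0.969, edgeR). Its sign turned with upper-quartile scaling, to -0.02.

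Smad7 (ENSMUSG00000025880.11, chromosome 18, 75367529 to 75395935), the feedback inhibitor, had 24, 5 and 2 counts in WT and 1, 88 and 12 counts in AhRR-/- replicates 1, 2 and 3. Those counts are 1.09, 0.794 and 0.280 CPM and 0.281, 2.11 and 1.21 CPM. One library of each genotype was under the 3 counts taken as the floor of detection, and the groups overlapped. Means were 0.723 ± 0.411 and 1.20 ± 0.915 CPM (SD, n = 3 each), too few counts for the main test. A fit without the filter gave a log2 fold change of 0.87 (SE 0.50, adjusted p = 0.291, edgeR). That did not pass the threshold and does not show that the levels were equal. Smad7 also entered the fits without WT replicate 2, WT replicate 3 or AhRR-/- replicate 1, and was not called in them. The other inhibitory Smad gene, Smad6, which acts mainly on the BMP branch, was at 2.14 ± 0.154 and 1.85 ± 0.236 CPM (log2 fold change -0.30, SE 0.23, adjusted p = 0.388, edgeR).

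SKI and SKIL are related corepressors that hold Smad complexes inactive at target genes and are degraded when the pathway is activated; Skil is also induced by TGF-beta. Skil (ENSMUSG00000027660.16, chromosome 3, 31095058 to 31122577) was at 76.0, 79.7 and 78.7 CPM in WT replicates 1, 2 and 3, a narrow range. In the AhRR-/- replicates it was at 110, 127 and 90.9 CPM, all above WT but spread more widely. Skil rose, from 78.1 ± 1.90 to 109 ± 17.9 CPM (SD, n = 3 each), with a log2 fold change of 0.41 (SE 0.12, 95% interval 0.13 to 0.69) and an adjusted p (edgeR) of 0.0468. The call lies just inside the threshold. It was lost when any WT library or AhRR-/- replicate 2 was left out, where the adjusted p (edgeR) was between 0.0765 and 0.181, and held without AhRR-/- replicate 1 (0.0453) or 3 (0.0290).

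Base composition moved with genotype in these libraries. Over 11394 genes the log2 fold change had a Spearman correlation of -0.29 with exonic GC content, a description across genes that share the same libraries. Skil has the lowest GC content of the tested 9, at 41.6%, and the 762 tested genes within 1 percentage point of it had a median log2 fold change of 0.15. With offsets that remove the GC trend in each library the Skil value was 0.27 (adjusted p = 0.118, edgeR). For Tgif1, at 48.4%, the 1312 genes of like GC content had a median of 0.06, of the opposite sign to its change. The sign of a gene's value was that of genes of like GC content for 5 of the 9 (Tgfb1, Tgfbr1, Smad2, Smad3 and Skil). No such share was computed over all tested genes, so this count is no result about the pathway. Whether base composition accounts for the value of Skil, Tgif1 or any other gene was not tested.

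Ski (ENSMUSG00000029050.15, chromosome 4, 155154075 to 155222592) was at 134, 113 and 143 CPM in WT and at 136, 166 and 160 CPM in AhRR-/- replicates 1, 2 and 3. The groups overlapped in AhRR-/- replicate 1. Its log2 fold change of 0.18 (95% interval -0.02 to 0.38) did not pass the test (adjusted p = 0.186, edgeR), but did so without AhRR-/- replicate 1, at 0.23 (adjusted p = 0.0268, edgeR). The difference between the Ski and Skil responses was not tested, and the ratio of Skil to Ski per kilobase overlapped between genotypes, at 0.324, 0.405 and 0.316 in WT and 0.464, 0.438 and 0.326 in AhRR-/- replicates 1, 2 and 3.

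TGIF1 is a homeodomain protein that recruits histone deacetylases to SMAD2 complexes. Tgif1 (ENSMUSG00000047407.17, chromosome 17, 70844205 to 70853546) was at 63.3, 72.9 and 61.8 CPM in WT and at 39.1, 51.6 and 32.1 CPM in AhRR-/- replicates 1, 2 and 3. All AhRR-/- libraries lay below all WT libraries, with a clear gap between the nearest. Tgif1 fell, from 66.0 ± 6.01 to 40.9 ± 9.92 CPM (SD, n = 3 each), which is 0.597 times the WT level in the fit (log2 fold change -0.74, SE 0.18, 95% interval -1.14 to -0.34, adjusted p = 0.0210, edgeR). In this fit it had the largest size of change of the 9 tested genes, and 5.31% of all tested genes had a lower value. The call held in 13 of the 16 other ways of processing the data. It was lost without WT replicate 1 (adjusted p = 0.0582, edgeR), WT replicate 2 (0.0729) or AhRR-/- replicate 3 (0.0603), with values from -0.99 to -0.60 when each library was left out in turn.

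The 2 called repressor genes moved in opposite directions, which shows in their ratio within a library. Per kilobase of exon, Skil was at 0.697, 0.635 and 0.739 times Tgif1 in WT and at 1.64, 1.42 and 1.65 times Tgif1 in AhRR-/- replicates 1, 2 and 3. On this scale Tgif1 was thus above Skil in every WT library and Skil above Tgif1 in every AhRR-/- one. The order in WT depends on the exon lengths used, 9694 bases for Skil and 5625 for Tgif1. In CPM, without division by length, Skil was above Tgif1 in every WT library too. Those values were 76.0, 79.7 and 78.7 against 63.3, 72.9 and 61.8 CPM in WT replicates 1, 2 and 3. The mean ratio was 0.690 ± 0.0528 and 1.57 ± 0.126 (SD, n = 3 each). It was formed after both genes were seen to change, and is a description.

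**Figure D2:**
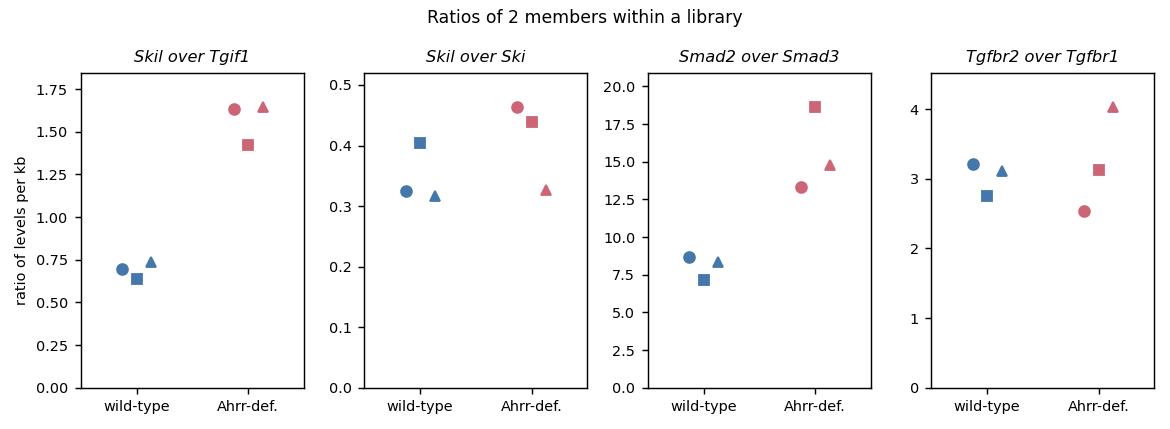
Ratios of exonic level per kilobase within each library (vertical axes from 0, no unit) for 4 pairs of genes, with a point for each of the 3 WT and 3 AhRR-/- libraries. Skil/Tgif1 goes from 0.690 to 1.57 and Smad2/Smad3 from 8.06 to 15.6 with no overlap, while Skil/Ski and Tgfbr2/Tgfbr1 overlap.

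**Figure D3:**
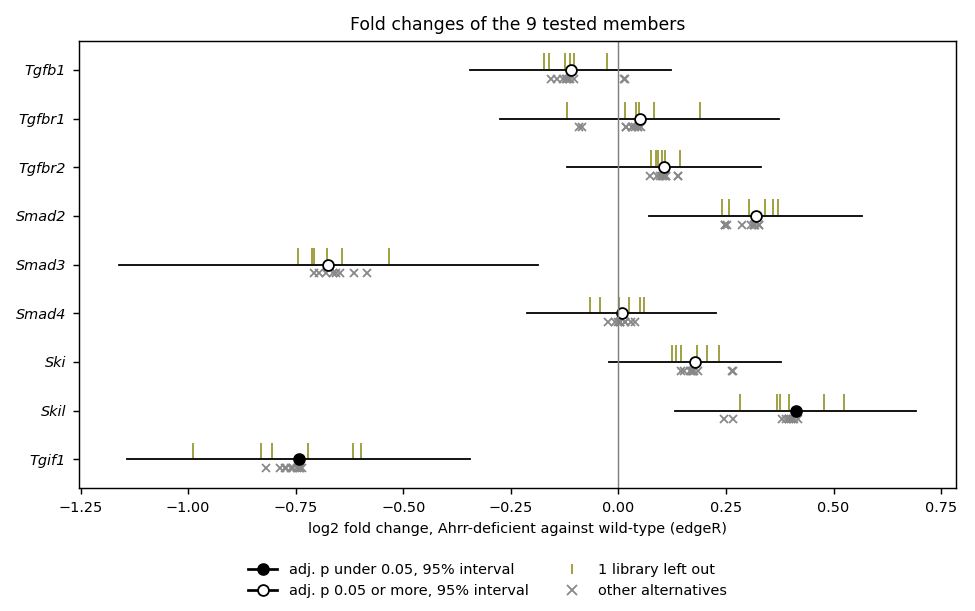
Log2 fold change, AhRR-/- over WT, of the 9 tested genes (horizontal axis, circles with 95% intervals from the edgeR fit, filled where the adjusted p is under 0.05), with ticks above for fits that leave out 1 library and crosses below for the other alternatives. The intervals of Tgif1, Smad3, Smad2 and Skil leave out 0, and Tgif1 and Skil pass the adjusted threshold.

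Per kilobase of exon the 10 transcripts spanned a wide range. Within WT the order of mean levels, in CPM per kilobase, was Tgfbr2 (94.1), Tgfb1 (57.7), Tgfbr1 (31.1), Ski (23.4), Smad4 (15.4), Tgif1 (11.7), Skil (8.06), Smad2 (4.07), Smad3 (0.503) and Smad7 (0.160), and no neighbours in that order overlapped. Tgfbr2 stood above 96.7% of all tested genes on this scale and Smad3 above 3.78%, so the receptor for the ligand was abundant and the DNA-binding receptor-regulated Smad scarce in these cultures. In AhRR-/- cells the order was the same except that Skil (11.3) stood above Tgif1 (7.28). There the libraries of 3 neighbouring pairs overlapped, Tgfbr1 with Ski, Tgif1 with Smad2 and Smad3 with Smad7. Lengths are those of all annotated exons joined, so isoforms with fewer exons would be read as lower.

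**Figure D4:**
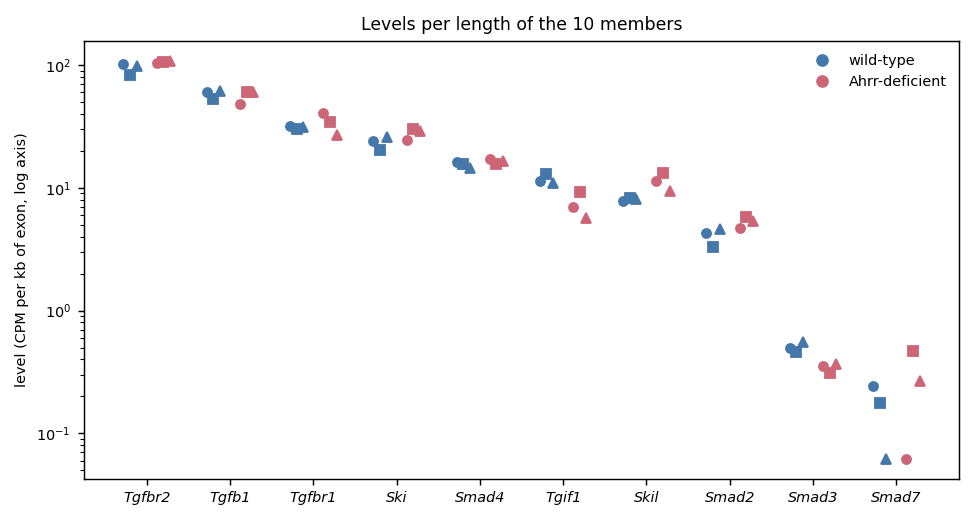
Level of the 10 genes in CPM per kilobase of exon (log axis) with a point for each WT and AhRR-/- library, in order of the WT mean. WT means run from 94.1 for Tgfbr2 to 0.160 for Smad7, and on this scale Skil and Tgif1 change places in AhRR-/- cells.

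The wider pathway was read from 8 lists of genes by role, 122 genes in all, of which 101 were annotated and 86 tested. In these lists 14 genes rose and 15 fell, 33.7% of 86, where 19.6% of all tested genes were called, 9.62% higher and 9.95% lower. The lists' median log2 fold change was 0.07. Groups did not overlap for 45 of the 86 (52.3%), against 36.6% of all tested genes. By role, the called share ran from 8.33% of tested nuclear co-factors to 71.4% of widely used target genes. Differences between the lists were not tested, and lists were drawn up with earlier results of these data known. Since the cells are a bulk culture, fewer cells of a type and less RNA per cell cannot be told apart in any of these values.

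Of 18 genes for ligands and for activation of the latent complex, 10 were tested, 1 rose and 4 fell (median log2 fold change -0.22). Thbs1, for thrombospondin 1, which can release TGF-beta from its latent complex, fell from 120 ± 25.7 to 48.7 ± 17.3 CPM (log2 fold change -1.44, SE 0.24, adjusted p = 0.00637, edgeR). Itgb5, for an integrin subunit that binds the latent complex, fell from 118 ± 2.72 to 79.0 ± 10.8 CPM (-0.67, SE 0.11, adjusted p = 0.00595, edgeR). Furin, for the protease that cleaves the TGF-beta precursor, rose from 362 ± 46.9 to 691 ± 180 CPM (0.86, SE 0.18, adjusted p = 0.0141, edgeR). Ltbp3, for a latent TGF-beta binding protein, and Tgfb2, for a second ligand, also fell. Tgfb2 was at the edge of detection, at 1.55, 2.38 and 2.24 CPM in WT and 0.844, 0.0960 and 0.101 CPM in AhRR-/- replicates 1, 2 and 3. The Furin call was lost without WT replicate 2 or 3 or AhRR-/- replicate 3, at an adjusted p (edgeR) of 0.0561, 0.0548 or 0.0567. Genes for storage, release and maturation of the ligand thus changed in both directions.

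At the receptor, 10 of 12 listed genes for co-receptors and receptor partners were tested, 2 rose and 1 fell. Dab2, for an adaptor in endocytosis that links receptors and Smads, rose from 326 ± 33.7 to 839 ± 234 CPM (log2 fold change 1.29, SE 0.18, adjusted p = 0.00369, edgeR). Fkbp1a, for a protein that keeps the type I receptor inactive, rose from 90.5 ± 9.51 to 139 ± 28.5 CPM (0.55, SE 0.14, adjusted p = 0.0285, edgeR). The Fkbp1a call was lost when any library but AhRR-/- replicate 1 was left out, where the adjusted p (edgeR) was between 0.0752 and 0.101. Bambi, for a pseudoreceptor, fell at under 2 CPM in every library. The co-receptor gene Tgfbr3, for betaglycan, was at 11.7 ± 3.62 and 11.6 ± 2.51 CPM (-0.13, SE 0.25, adjusted p = 0.748, edgeR), and its sign turned when libraries were thinned to 1 depth (0.17).

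All 11 genes for Smad ubiquitin ligases, deubiquitinases and phosphatases, with Smad6, were tested, and 1 rose, Smurf1. It encodes a ligase that marks Smads and the type I receptor for degradation, and it rose from 41.9 ± 2.98 to 65.0 ± 18.3 CPM (log2 fold change 0.59, SE 0.17, adjusted p = 0.0372, edgeR). Among 12 tested nuclear co-factors, 0 rose and 1 fell, Zeb1, whose groups overlapped. For the branch that runs through kinases other than Smads, 9 of 9 genes were tested and 1 rose, Map2k3, from 33.3 ± 4.64 to 48.3 ± 9.32 CPM (0.49, SE 0.13, adjusted p = 0.0353, edgeR). When a library other than AhRR-/- replicate 1 was left out, neither call held, with adjusted p-values (edgeR) of 0.0897 to 0.125 for Smurf1 and 0.0875 to 0.13 for Map2k3. Median log2 fold changes of these 3 lists were 0.07, 0.04 and -0.04.

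In the BMP and activin branch, 12 of 21 genes were tested, 3 rose and 3 fell. Inhba, for the subunit of activin A, which signals through SMAD2 and SMAD3 like TGF-beta, was at 16.7, 14.3 and 14.3 CPM in WT and at 70.3, 152 and 54.8 CPM in AhRR-/- replicates 1, 2 and 3. Every AhRR-/- library was well above WT, and Inhba rose with a log2 fold change of 2.56 (SE 0.35, adjusted p = 0.00317, edgeR). Bmp2, for a BMP ligand, fell from 45.3 ± 7.94 to 15.3 ± 7.43 CPM (-1.84, SE 0.29, adjusted p = 0.00527, edgeR). Id1, a target of BMP and SMAD1 signalling, rose from 10.3 ± 3.70 to 41.8 ± 14.7 CPM (1.92, SE 0.27, adjusted p = 0.00353, edgeR). Id2 rose also, and the receptor genes Bmpr1a and Acvr2b fell. The log2 fold changes of Inhba and Bmp2 were larger in size than those of the 9 tested core genes, a difference that was not itself tested.

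Genes widely used as TGF-beta targets moved in both directions, with 4 that rose and 6 that fell of 14 tested (21 listed, median log2 fold change -0.04). Tgfbi, for an extracellular matrix protein induced by TGF-beta, was at 2.05, 0.794 and 3.08 CPM in WT and 4.22, 11.9 and 17.0 CPM in AhRR-/- replicates 1, 2 and 3 (2.50, SE 0.44, adjusted p = 0.00711, edgeR). Myc, which TGF-beta represses in many cells, was at 26.8, 17.1 and 19.1 CPM in WT and 72.6, 111 and 165 CPM in the AhRR-/- replicates (2.38, SE 0.27, adjusted p = 0.00184, edgeR). Id1, given above, and Bhlhe40 rose too. Among the genes that fell were Junb, Cdkn1a, Tsc22d1, Bcl2l11 and Itgb5. Junb went from 541 ± 65.6 to 215 ± 17.9 CPM (log2 fold change -1.40, SE 0.10, adjusted p = 0.000659, edgeR). Cdkn1a went from 723 ± 67.2 to 429 ± 11.6 CPM (-0.83, SE 0.12, adjusted p = 0.00374, edgeR). Many of these genes also answer to other signals, and the list says nothing of SMAD activity, which was not measured.

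Of 19 genes reported to depend on TGF-beta in tissue macrophages, 10 were tested, 3 rose and 1 fell (median log2 fold change 0.33). Car4, which marks alveolar macrophages, was at 128, 45.4 and 61.6 CPM in WT and 260, 1086 and 780 CPM in AhRR-/- replicates 1, 2 and 3 (log2 fold change 3.10, SE 0.51, adjusted p = 0.00622, edgeR). Pparg, for the nuclear receptor that GM-CSF and TGF-beta induce in alveolar macrophages, was at 82.5, 79.7 and 77.8 CPM in WT and 107, 148 and 136 CPM in the AhRR-/- replicates (0.64, SE 0.11, adjusted p = 0.00736, edgeR). P2ry12, a microglial receptor gene, rose at a low level, from 5.01 ± 1.04 to 8.29 ± 1.36 CPM (0.68, SE 0.18, adjusted p = 0.0281, edgeR), while Gpr34, another, fell. The P2ry12 call was lost when any library but AhRR-/- replicate 1 was left out, at an adjusted p (edgeR) of 0.0707 to 0.135. P2ry12 has a GC content of 39.4%, and with GC offsets its adjusted p (edgeR) was 0.0963. Its call held in 6 of the 16 alternatives. Car4, Siglecf and Mertk are also on the list of macrophage markers.

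**Figure D5:**
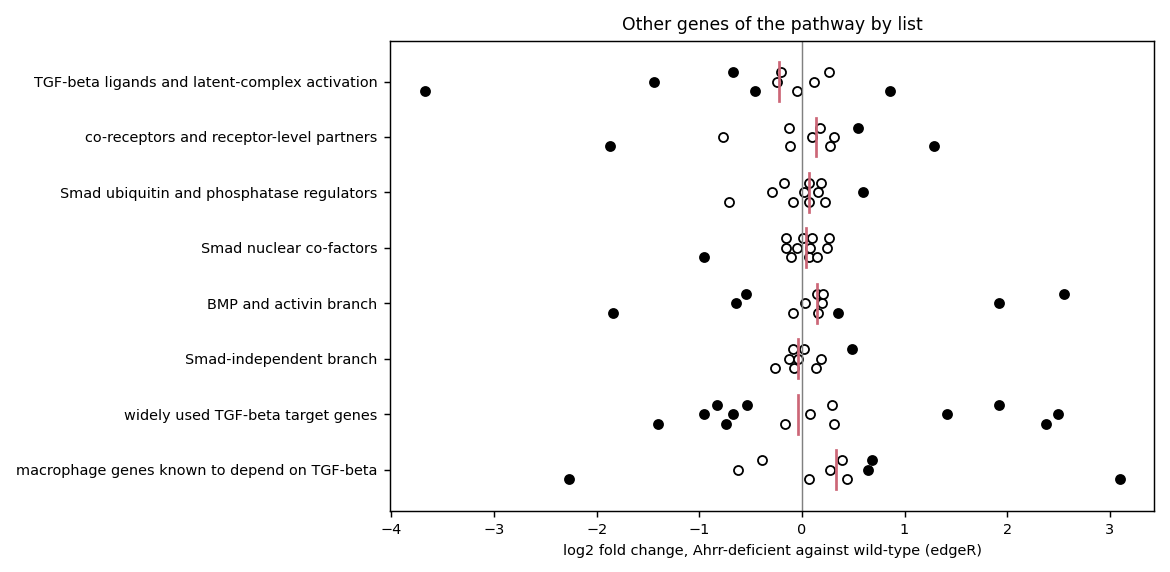
Log2 fold change, AhRR-/- over WT (horizontal axis), of each tested gene in the 8 pathway lists, with filled points for genes past the adjusted threshold and a line at each list's median. Called genes lie on both sides of 0 in the lists of ligands and activation, co-receptors, BMP and activin, widely used targets and macrophage genes.

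Markers of other cell types that could carry these transcripts were mostly missing or near the floor. The deposited table leaves out genes with a total under 10 counts, so a missing marker can be one of those. The platelet genes Pf4 and Ppbp were not among the annotated genes, and Itga2b, the single annotated one of 6 megakaryocyte and platelet markers, fell from between 2.7 and 3.01 CPM in WT to between 1.21 and 1.97 CPM in AhRR-/- libraries. Of 8 fibroblast and stellate markers only Acta2 was annotated, at 0.0912 to 0.159 and 0.281 to 0.506 CPM, and Afp was the only one of 7 for hepatocytes, at 0.159 to 0.701 and 0.607 to 0.864 CPM. Of the mast cell and basophil markers and the lymphocyte markers, 0 of 6 and 0 of 6 were in the deposited table. Dendritic cell markers, 3 of 6 in that table, summed to between 57.6 and 62.1 CPM in WT and between 72.0 and 93.2 CPM in AhRR-/- libraries. Nearly all of it was Clec9a, while Flt3 and Ccr7 were not in that table. Among the 14 macrophage markers Car4 and Itgax rose and Csf1r fell, named after their values were seen. The part of these markers in the values of Skil, Tgif1 and the listed genes was not tested.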

How the data were processed

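Polyadenylated RNA of 6 macrophage cultures was sequenced from 100 ng of RNA with a TruSeq kit as single 75 bp reads, per the labels. The submitters' processing notes name the mm10 build, fastp 0.20.0, STAR 2.7.10b, SAMtools 1.16.1, R 4.3.1 and DESeq2 1.40.2. The counting program, its annotation and its use of strand are not given in the sources used here. The authors deposited raw counts for 53465 features without names, and a normalized signal for 16111 annotated genes. Each deposited signal value was a whole number of reads divided by a size factor, for 100% of values at a tolerance of 1e-06, and these reads matched raw rows with a total of at least 10 counts. Features without a name held 0.0232% to 0.0511% of a library's counts and entered its total.

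Counts were tested with edgeR 4.0.16 in R 4.3.3 (quasi-likelihood test, TMM scaling, filterByExpr, genotype as the only term), two-sided, with Benjamini-Hochberg adjustment over 11408 genes and a threshold of 0.05. TMM factors ran from 0.904 to 1.04. Standard errors came from the fold change and the F statistic. Replicate libraries differed by more than counting noise (chi-square per degree of freedom at least 5.79). The numbered mice are taken as separate animals; whether they came from separate litters is not given. A floor of 3 counts was 0.0720 to 0.844 CPM, and it covers counting error only, since reads carry no molecular identifiers. The fit on raw counts is the count test on the recovered reads, so it stands for both units.

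Coordinates, exon lengths and GC content are from GENCODE M21 on GRCm38, in which 16094 of 16111 identifiers were found, 14479 with the same version. No exon of the 10 genes or of Ahrr overlaps another gene there. Of the listed genes named in the text, Thbs1, Furin, Ltbp3, Tgfb2, Dab2, Tgfbr3, Zeb1, Bmpr1a, Junb, Cdkn1a, Bhlhe40 and P2ry12 share exonic bases with another gene, so their counts are uncertain.

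The 10 genes and all lists were chosen with earlier results of these data known. Of the lists, named genes are at most the 3 largest changes per list with an adjusted p under 0.05, CPM ranges that do not overlap and 50 or more counts on average; Pparg, Smad6 and Tgfbr3 are named in any case, and any other was named after its values were seen. The values of 1 listed target gene are not reported here. Alternatives were RLE and upper-quartile scaling, no filter, DESeq2 1.42.0, only genes averaging 50 or more counts, limma-voom (limma 3.58.1), the replicate number as a block, thinning to 3556106 counts and each library left out; GC offsets (lowess span 0.3), without and with that block, were chosen after seeing the data. Figures were drawn with matplotlib 3.10.9.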

Additional observations from a re-analysis of the deposited data

How the results depend on the processing

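Tgif1 passed the threshold in 13 of 16 alternatives and Skil in 6 of 16. Of the 2 core genes called, 1 was called with a mean of at least 50 counts, 1 with thinning to the smallest total and 1 with GC offsets and the block, Tgif1 each time. Skil had a log2 fold change of 0.38 with upper-quartile scaling (edgeR adjusted p = 0.0575), 0.40 with the mean of at least 50 counts (0.0548), 0.39 with limma-voom (0.0502), 0.40 when thinned (0.0566), 0.27 with GC offsets (0.118) and 0.25 with GC offsets and the block (0.101). Past the threshold in alternatives only were Smad2 with limma-voom (0.33), Smad3 with upper-quartile scaling (-0.71) and limma-voom (-0.70), and Ski with GC offsets (0.27). Signs turned for Tgfb1 with GC offsets (0.0161, and 0.0133 with the block), Tgfbr1 (-0.0837 and -0.0918), Smad4 with upper-quartile scaling (-0.0243), the mean of at least 50 counts (-0.00211) and thinning (-0.00719), and Tgfbr3 with thinning (0.17). The cause was not tested. Thinning gave 1243 calls over all genes and 19 in the pathway lists, 18 of them among the 29.

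With each library left out, calls over all genes ran from 694 (without wild-type replicate 1) to 3857 (without Ahrr-deficient replicate 1), against 2232. Among the core genes they ran from 0 (of 9 or 10 tested, without wild-type replicate 1 or 2) to 5 of 10 tested. Those 5, called without Ahrr-deficient replicate 1, were Ski, Skil, Smad2, Smad3 and Tgif1. In the lists, calls ran from 19 to 38. Log2 fold changes ran from -0.17 to -0.03 for Tgfb1, -0.12 to 0.19 for Tgfbr1, 0.07 to 0.14 for Tgfbr2, 0.24 to 0.37 for Smad2, -0.74 to -0.53 for Smad3, -0.0669 to 0.0601 for Smad4, 0.12 to 0.23 for Ski, 0.28 to 0.52 for Skil, -0.99 to -0.60 for Tgif1, -0.37 to 0.0263 for Tgfbr3 and -1.69 to -1.0 for Ahrr. Of 17 named list genes, Thbs1, Itgb5, Dab2, Inhba, Id1, Bmp2, Tgfbi, Myc, Car4 and Pparg passed in all 16 alternatives.

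The replicate number as a block gave 1390 calls over all genes, and 1180 with GC offsets. Deviations of libraries with the same number had correlations of -0.169, 0.0714 and 0.129, and those with other numbers ran from -0.214 to 0.163. With 3 libraries per genotype these values cannot tell whether the numbers pair the mice. With the block Skil and Tgif1 passed, while Smurf1 (edgeR adjusted p = 0.0588), Map2k3 (0.0703) and P2ry12 (0.0869) did not.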
